A study of Mus musculus with 24 samples.

Results

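A panel of 10 transcription factors of the myeloid lineage was followed across 8 groups of sorted mouse colon myeloid cells. They were the rows of the deposited table whose Ensembl identifier mapped to Spi1, Cebpa, Cebpb, Cebpd, Cebpe, Gfi1, Irf4, Irf8, Runx3 and Nr4a1, and all 10 were among its 17301 genes. Macrophages with high F4/80 and either high or low MHCII (MHCIIhi and MHCIIlow), Ly6C-high MHCII-negative monocytes and Ly6G-high F4/80-negative neutrophils had been sorted from colon lamina propria (LP) of C57BL/6J mice, labelled healthy, and from tumours of the colon in Apc Min/+ animals, in which a germline truncation of Apc leads to intestinal adenomas. The 24 libraries, 3 to a group, were each made from cells pooled over several adult mice. Pools are named below by the Roman number that the labels give as the donor, and p-values measure the spread between such pools. Dextran sodium sulphate injures the colon and speeds up tumour growth. According to the methods both kinds of mice had been given it, at different doses, whereas the labels speak only of healthy LP. The treatment of the LP donors is thus not settled. LP had been incubated with EDTA and digested with collagenase D, while tumours were digested with collagenase D and DNase I for a shorter time, and the Percoll steps differed too. Tumour, Apc genotype, dextran sodium sulphate treatment and digestion therefore cannot be told apart in any comparison of tumour with LP. In RNA of whole sorted populations, fewer expressing cells and less RNA per cell cannot be told apart either.

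PU.1, the product of Spi1, opens the myeloid programme, and the C/EBP family acts with it. C/EBPa is needed for granulocyte and monocyte progenitors, C/EBPe and Gfi1 for the maturation of granulocytes, and C/EBPb and C/EBPd for emergency granulopoiesis and inflammatory gene expression. IRF8 favours monocytes and dendritic cells over neutrophils, IRF4 acts in alternatively activated macrophages, dendritic cells, B cells and plasma cells, Runx3 is a Runt factor best known in T cells and also found in mononuclear phagocytes, and Nr4a1 (Nur77) is an orphan nuclear receptor that is both an immediate-early gene and a factor that Ly6C-low monocytes depend on.

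Values are log2 RPKM (reads scaled for gene length and library size) as deposited. Groups were compared with limma on the deposited values over the 12878 genes whose mean RPKM reached 1 in any group, and adjusted p is the Benjamini-Hochberg value over all of them, with a threshold of 0.05. Of the 10 factors 9 were tested, and Gfi1 was below that filter. Libraries held 12838061 to 41718078 reads on genes, and no pair of libraries correlated above 0.925, so no library was a copy of another. The sorted populations were checked against their markers. Summed macrophage markers were at 3194 to 6733 RPKM in macrophage libraries and 45.7 to 370 elsewhere, and summed neutrophil markers were at 11604 to 30625 RPKM in neutrophils and 23.3 to 301 elsewhere. Ly6g had no reads in 3 of the 4 macrophage groups. The monocyte marker list was no higher in monocytes (172 to 298 RPKM) than in neutrophils (498 to 775 RPKM), and stood at 1.66 to 17.7 RPKM in macrophages. The library sizes behind the deposited values were 0.466 to 0.682 times the summed reads in neutrophils and 0.981 to 1.507 times elsewhere. With summed reads in their place the median difference of all tested genes became -0.59 between tumour and LP neutrophils, and -1.07 and -1.49 between neutrophils and monocytes of LP and tumour, against -0.12, -0.24 and -0.36 on the deposited scale.

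**Figure D1:**
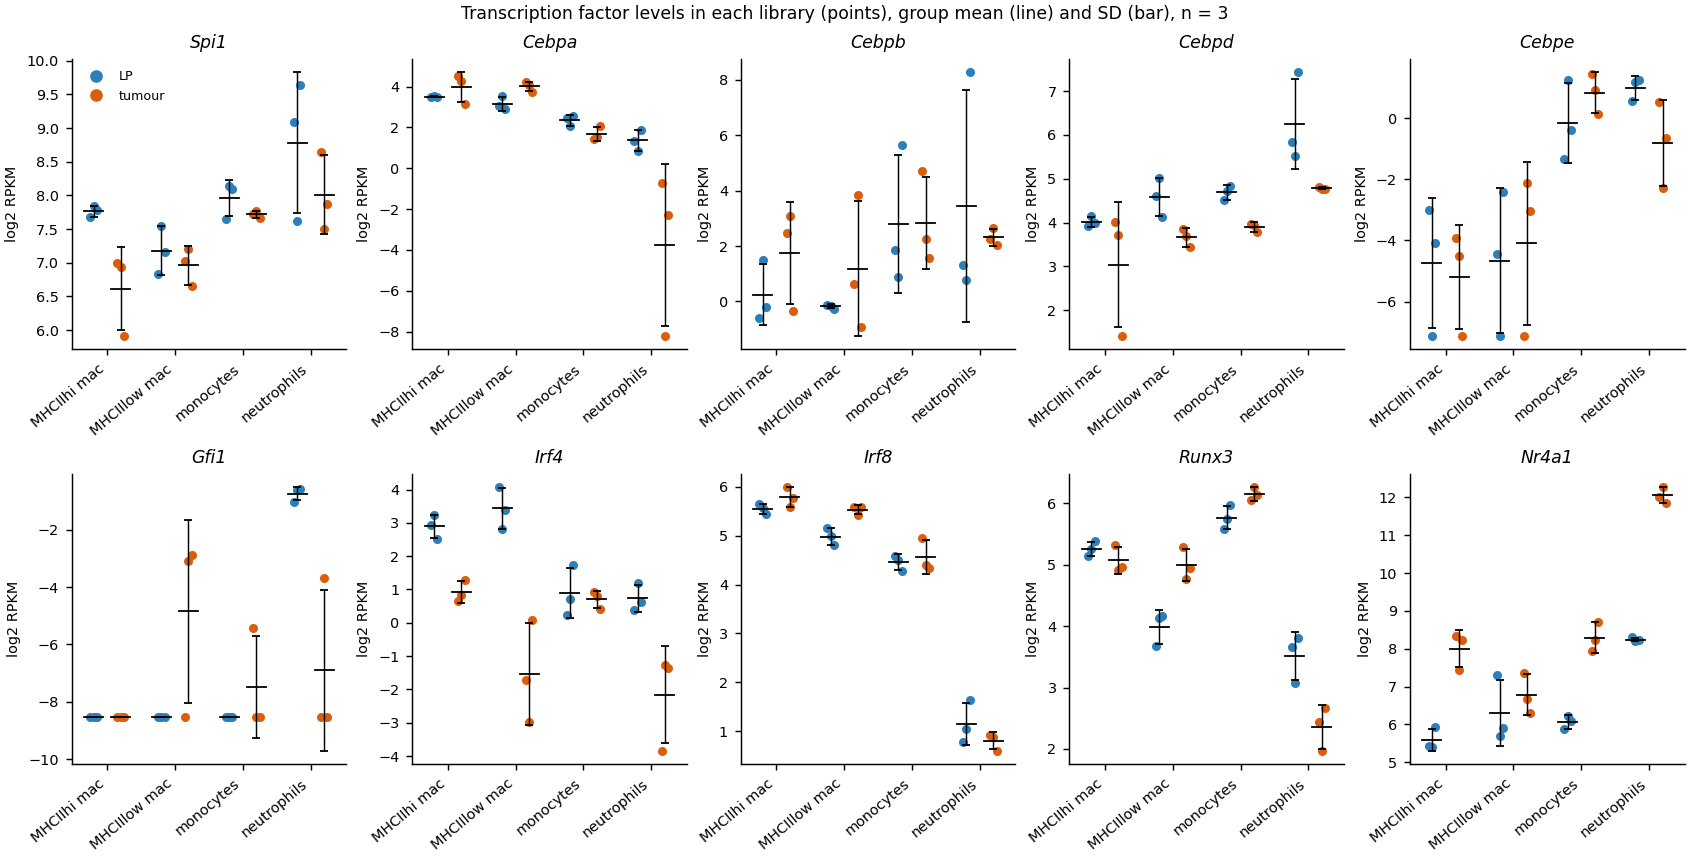
Levels of the 10 factors (log2 RPKM, y axis) in every library (points) of the 4 populations, LP in blue and tumour in orange, with the group mean as a line and the SD as a bar (n = 3). Nr4a1 reached 11.86 to 12.28 in tumour neutrophils, Irf4 was highest in LP macrophages, Irf8 stood below 2 in all neutrophil libraries, and Cebpb scattered widely within most groups.

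Tumour and LP were compared first, to ask which factors differed between the tissues in the same population. In MHCIIhi macrophages 3 of 9 factors passed the test, Nr4a1 higher and Spi1 and Irf4 lower in tumour, where 19.5% of all tested genes did so. In MHCIIlow macrophages 3 passed, Runx3 and Irf8 higher and Irf4 lower, beside 23.3% of all genes. Nr4a1 alone passed in monocytes, where 9.29% of genes did. In neutrophils Nr4a1 was higher and Cebpa, Cebpd, Irf4 and Runx3 were lower, 5 of 9 beside 32.2% of all genes. Over the 9 tested factors the median differences were -0.19, 0.55, 0.05 and -1.16 in the order of these populations, against medians of all genes of 0.00, 0.06, 0.00 and -0.12.

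**Figure D2:**
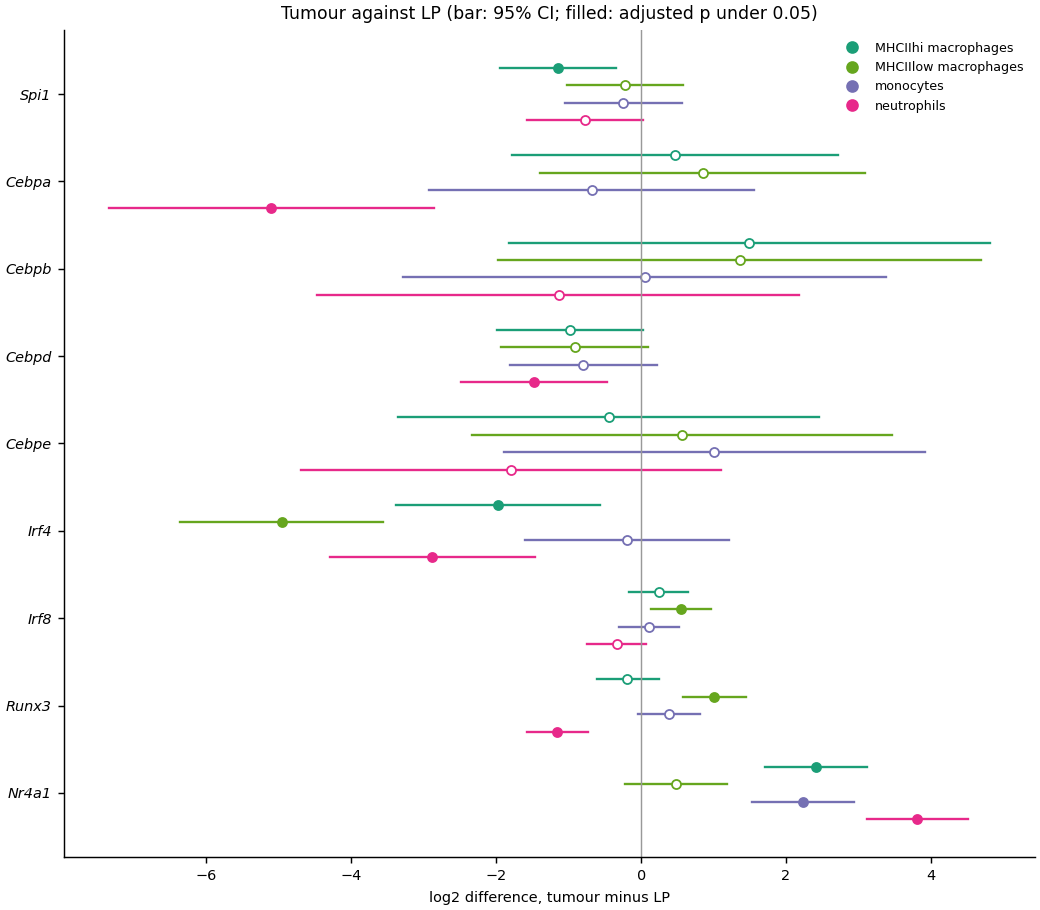
Difference between tumour and LP (log2, x axis) for the 9 tested factors in MHCIIhi macrophages, MHCIIlow macrophages, monocytes and neutrophils, with 95% confidence intervals. Filled points passed an adjusted p of 0.05. Nr4a1 lies to the right in all 4 populations, from 0.48 to 3.81, and Irf4 to the left, from -0.19 to -4.96.

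Nr4a1 showed the largest called rise of the panel in tumour. In neutrophils it was at 8.30, 8.21 and 8.22 log2 RPKM in LP pools III, IV and V and at 12.02, 12.28 and 11.86 in tumour pools I, II and V. All tumour libraries thus lay far above all LP libraries, a 14.0-fold difference (log2 3.81, SE 0.34, adjusted p = 1.51e-07), and at a mean of 4282 RPKM Nr4a1 was the highest of the 10 factors anywhere in the series. MHCIIhi macrophages held 5.44, 5.41 and 5.92 in LP and 8.34, 7.44 and 8.22 in tumour pools I, V and VII. These did not overlap, and the tumour cells were 5.31-fold higher (log2 2.41, SE 0.34, adjusted p = 3.27e-05). Monocytes held 5.87, 6.22 and 6.10 in LP and 7.93, 8.24 and 8.72 in tumour pools I, II and V, again without overlap, and differed 4.70-fold (log2 2.23, SE 0.34, adjusted p = 2.74e-04). In MHCIIlow macrophages the values were 7.30, 5.70 and 5.91 in LP pools II, III and IV and 7.37, 6.66 and 6.31 in tumour, which overlapped, since LP pool II stood with the tumour libraries (log2 0.48, 95% interval -0.23 to 1.18, adjusted p = 0.350). Without LP pool II the difference there was 0.97 with an adjusted p of 0.0231.

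The rise of Nr4a1 was smaller in MHCIIlow than in MHCIIhi macrophages by 1.93 log2 units (95% interval -2.93 to -0.94, adjusted p = 0.0457). This difference of differences passed the test for 2 of 9 factors, beside 1.46% of all genes, and it is close to the threshold. Leaving out LP MHCIIhi pool III, IV or V, LP MHCIIlow pool II, any of the 3 tumour MHCIIhi pools except V, or tumour MHCIIlow pool V or VII gave adjusted p between 0.0612 and 0.124, with differences between -1.44 and -2.10. The rise was larger in neutrophils than in monocytes by 1.58 log2 units (adjusted p = 0.0427), a comparison in which 2 of 9 factors and 9.11% of genes passed. That call was lost in 10 of the 12 fits that left out 1 library, all of which kept values of 1.40 to 1.67, and under quantile normalization, with a value of 0.74 and an adjusted p of 0.435, and with summed reads as library sizes (1.27, 0.0685).

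A RefSeq start of Nr4a1 (gene at GRCm38 chr15:101254269-101274795, plus strand, protein coding) is shown because the factor belongs to the immediate-early genes, many of which are induced through cAMP response elements. This start lies inside the gene, downstream of the first base of that span. The window of 250 bases before to 50 after a RefSeq start (GRCm38.p6, chr15:101266596-101266895, plus strand) follows with the half-site CGTCA, searched as CGTCA and TGACG, in capitals. The motif was picked after the sequence had been read.
Nr4a1: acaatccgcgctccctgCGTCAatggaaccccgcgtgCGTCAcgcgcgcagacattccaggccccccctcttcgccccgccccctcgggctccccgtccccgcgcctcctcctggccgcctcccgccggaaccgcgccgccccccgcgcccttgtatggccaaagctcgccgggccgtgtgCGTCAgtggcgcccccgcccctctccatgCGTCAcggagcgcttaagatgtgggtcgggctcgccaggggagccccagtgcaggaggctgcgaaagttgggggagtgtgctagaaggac
The window held 4 matches. Of the 32851 RefSeq windows of this length 20.8% held at least 1 and 0.231% at least 4. The window of Cebpb held 3, and those of Cebpa, Gfi1, Irf4, Irf8 and Runx3 none.

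Other immediate-early genes were read beside Nr4a1, from a list of 20 (Fos, Jun, Egr, Ier, Dusp and related genes, with Nr4a2 and Nr4a3). Counts of tumour against LP for this list and those below stand beside the shares of all genes called. These were 19.5% in MHCIIhi macrophages, 23.3% in MHCIIlow macrophages, 9.29% in monocytes and 32.2% in neutrophils. In tumour neutrophils 13 of the 20 were higher than in LP and none lower (median 1.29), among them Fosb by 2.40 and Nr4a2, a paralogue of Nr4a1, by 2.26. In tumour monocytes 8 were higher and none lower (median 0.59), with Nr4a2 higher by 1.84 and Egr2 by 1.44. MHCIIhi macrophages had 7 higher and 2 lower (median 0.42), with Atf3 higher by 2.46, the anti-proliferative Btg2 by 2.23 and Fosl1 lower (log2 -3.40). MHCIIlow macrophages, in which Nr4a1 did not pass, had 3 higher and 4 lower (median 0.05). The summed level of the list was 10802 to 12443 RPKM in the neutrophils of LP against 28413 to 35218 in those of tumour, while monocytes had 3714 to 5096 in LP against 6119 to 7068 in tumour. In MHCIIhi macrophages the sums overlapped, with 4709 to 6833 in tumour and 4889 to 5528 in LP. Dissociation is known to induce these genes, it differed between the tissues, and its part in the Nr4a1 differences was not tested.

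**Figure D3:**
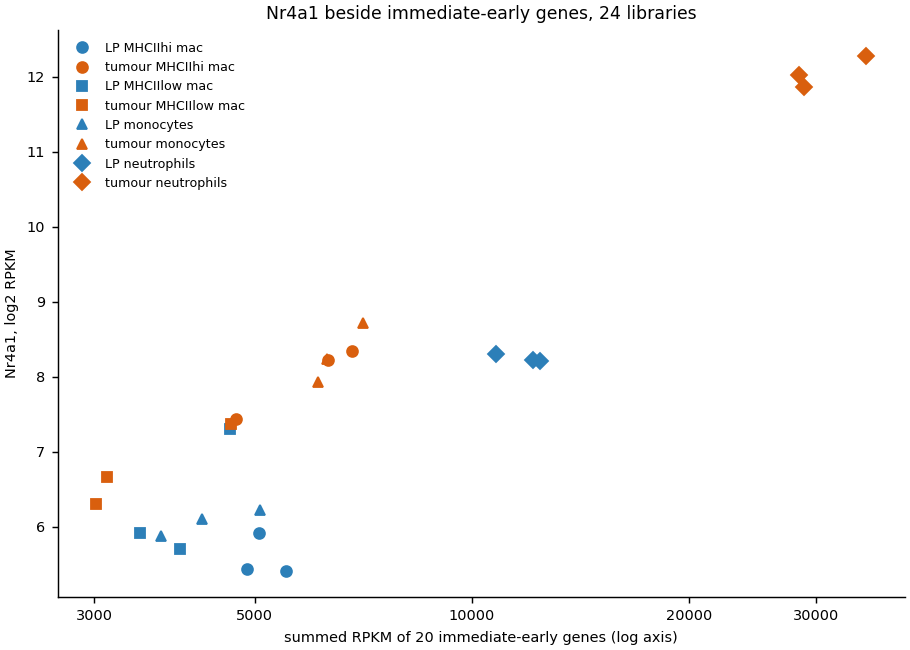
Nr4a1 (log2 RPKM, y axis) against the summed RPKM of 20 immediate-early genes (x axis, logarithmic) in the 24 libraries, LP in blue and tumour in orange, with a symbol for each population. Tumour neutrophils stand apart at the top right, LP neutrophils have 10802 to 12443 RPKM at an Nr4a1 level near that of tumour monocytes and tumour MHCIIhi macrophages, and LP MHCIIhi macrophages lie below tumour MHCIIhi macrophages at like sums.

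Across populations Nr4a1 was higher in neutrophils than in monocytes, by 2.18 log2 units in LP (adjusted p = 1.88e-05) and 3.76 in tumour (adjusted p = 1.23e-08). Both calls held in all alternative fits, but the sizes ranged from 1.21 to 2.47 in LP and from 1.94 to 4.21 in tumour. Tumour macrophages were lower than tumour monocytes by 0.91 log2 units (log2 -0.91, adjusted p = 0.0189), although libraries overlapped, and this was lost without tumour monocyte pool V (-0.70, adjusted p = 0.121), under quantile normalization (-0.43, 0.277) and with summed reads as library sizes (-0.56, 0.116). Genes of the Ly6C-low monocytes that need Nr4a1 were read beside it. Of 7 such genes (Cx3cr1, Ceacam1, Itgal, Spn, Treml4, Ace, Pou2f2) none was higher in tumour monocytes and Pou2f2 was lower (log2 -1.57), while in MHCIIlow macrophages, in which Nr4a1 did not pass, 4 were higher, including Cx3cr1 by 3.21 and Itgal by 3.13, and 2 were lower. In MHCIIhi macrophages 2 were higher and 1 lower, and in neutrophils 2 were higher and 2 lower. The 3 genes most like Nr4a1 over the 24 libraries, by Pearson r among genes whose mean reached 10 RPKM in a group, were Ints6l (0.970), Atp7a (0.960) and Nfkbid (0.953).

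Irf4 was highest in LP macrophages and lower in tumour in 3 of the 4 populations. LP MHCIIlow macrophages held 4.08, 2.83 and 3.39 log2 RPKM in pools II, III and IV, and tumour MHCIIlow macrophages -1.71, -2.97 and 0.09 in pools I, V and VII. The groups were far apart, 31.2-fold (log2 -4.96, SE 0.67, adjusted p = 1.74e-05), and the call held in each of the 16 alternative fits, at values of -3.03 to -5.77. LP MHCIIhi macrophages held 2.93, 3.23 and 2.52 and tumour MHCIIhi macrophages 0.64, 0.83 and 1.28, again without overlap (log2 -1.98, SE 0.67, adjusted p = 0.0446). This call did not hold without single libraries, since leaving out any 1 of the 6 libraries raised the adjusted p to between 0.0683 and 0.135, at values of -1.81 to -2.17. In neutrophils, the levels were 0.38, 1.19 and 0.63 in LP and -3.84, -1.26 and -1.36 in tumour (log2 -2.88, SE 0.67, adjusted p = 0.00276). The tumour libraries held only 4, 16 and 14 reads of Irf4, the call was lost with voom on recovered reads (-2.83, 0.0625), and the value ranged from -1.06 to -3.35 over the alternatives. In monocytes the 2 tissues overlapped at 0.24 to 1.73 and 0.41 to 0.91 (log2 -0.19, 95% interval -1.60 to 1.21). The tumour difference was therefore tested between macrophages and monocytes, and it was more negative in macrophages by 3.28 log2 units (log2 -3.28, adjusted p = 0.0142, 0.0520 without LP monocyte pool III at -2.95). Irf4 was the only one of 9 factors to pass that test, beside 9.19% of all genes.

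LP macrophages stood above LP monocytes by 2.26 log2 units in Irf4 (adjusted p = 0.00591), whereas in tumour the macrophages were at -1.01 against monocytes (95% interval -2.23 to 0.21, adjusted p = 0.185). Between the tumour subsets MHCIIlow macrophages were lower without overlap, but the difference of -2.44 did not pass (adjusted p = 0.0866). It did so without tumour MHCIIlow pool VII, the highest of its group (-3.25, adjusted p = 0.0244), and with all libraries under quantile normalization (-2.46, 0.0447). The difference of the tumour effect between subsets was -2.99 with all libraries (adjusted p = 0.141) and -3.80 without that pool (0.0337), and it also passed with log2(RPKM + 1) (-1.49, 0.0447) and with voom on recovered reads (-3.16, 0.0273).

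Irf4 is also expressed by plasma cells, B cells and dendritic cells, whose transcripts were higher in several LP libraries. Summed B and plasma cell markers (7 of 8 in the table) were at 88.0 to 98.6 RPKM in LP and 13.7 to 20.4 in tumour MHCIIhi macrophages, and at 372 to 1334 in LP and 14.3 to 35.2 in tumour neutrophils. In MHCIIlow macrophages the ranges overlapped, at 23.8 to 278 in LP and 15.8 to 77.7 in tumour. Of this list, Sdc1 had means of 6.18 and 2.50 log2 RPKM in LP and tumour MHCIIhi macrophages, and Jchain 3.45 and 1.06. Monocytes of LP and tumour had Sdc1 at 8.56 and 7.79 and Jchain at 7.96 and -2.85. LP neutrophils had Sdc1 at 4.24 and Jchain at 9.18. LP MHCIIlow pool II had the lowest sum of its group and the highest Irf4 (4.08 log2 RPKM). LP monocytes had 527 to 944 RPKM of the B and plasma cell markers, with Irf4 at 0.24 to 1.73. Summed dendritic cell markers (9 of 9) were at 54.4 to 76.6 and 9.23 to 18.0 RPKM in LP and tumour MHCIIhi macrophages, and at 20.0 to 24 and 5.54 to 7.62 in MHCIIlow macrophages, in which Flt3 had no reads in LP and Cd209a none in tumour. LP neutrophils had 93.4 to 187 RPKM of these markers, with Irf4 at 0.38 to 1.19. Ccr7, which other cells also express, led the sum in LP neutrophils and LP MHCIIhi macrophages (means of 6.53 and 5.69 log2 RPKM). Flt3 and Zbtb46, which define dendritic cells, had means of -2.45 and -0.54 in the former and -3.61 and -1.59 in the latter. Cd209a, of the same list, had means of 4.54 in LP neutrophils and 3.06 in LP MHCIIhi macrophages. In tumour its means were -1.21 and -4.50 in these populations. Fibroblast markers were lower in tumour in all 4 populations, 4 or 5 of the 5 tested. The part of such transcripts in the Irf4 differences of either macrophage subset or of neutrophils was not tested.

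The promoter window of Irf4 (gene at GRCm38 chr13:30749226-30766976, plus strand, protein coding) is shown because PU.1, itself a member of the panel, can bind with IRF4 and IRF8. The RefSeq window (GRCm38.p6, chr13:30748983-30749282, plus strand) has the PU.1 core GAGGAA, searched as GAGGAA and TTCCTC, in capitals.
Irf4: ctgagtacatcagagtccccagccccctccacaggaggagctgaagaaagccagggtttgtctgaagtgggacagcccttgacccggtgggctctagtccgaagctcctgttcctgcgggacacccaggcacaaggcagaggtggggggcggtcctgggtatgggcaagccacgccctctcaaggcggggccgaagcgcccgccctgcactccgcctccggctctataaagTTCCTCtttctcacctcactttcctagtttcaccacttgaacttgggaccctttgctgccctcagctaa
It held 1 match, and 28.3% of all windows held at least 1. No other window of a factor did.

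Irf8 was far lower in neutrophils than in every other population. Neutrophils held 0.77, 1.04 and 1.63 log2 RPKM in LP and 0.93, 0.88 and 0.60 in tumour, and monocytes 4.59, 4.51 and 4.27 in LP and 4.96, 4.40 and 4.34 in tumour. No neutrophil library came near a monocyte library, and the difference was 9.90-fold in LP (log2 -3.31, SE 0.19, adjusted p = 4.76e-11) and 13.5-fold in tumour (log2 -3.76, SE 0.19, adjusted p = 6.89e-12). Between LP and tumour neutrophils the difference of -0.34 did not pass (adjusted p = 0.195), except with summed reads as library sizes (-0.81, 0.00233). Macrophages were above monocytes, at 5.44 to 5.65 (MHCIIhi) and 4.80 to 5.15 (MHCIIlow) in LP and 5.59 to 6.0 and 5.42 to 5.59 in tumour. The difference was 0.81 in LP (adjusted p = 0.00108) and 1.09 in tumour (adjusted p = 2.93e-05), with no overlap of libraries in either. Tumour MHCIIlow macrophages were higher than their LP counterparts by 0.55 log2 units (SE 0.19, adjusted p = 0.0470), also without overlap, but leaving out any 1 of the 6 libraries took the adjusted p to between 0.0502 and 0.164, at values of 0.46 to 0.63. Irf8 (chr8:120736358-120756694, plus strand) had the smallest spread within groups of the panel, an SD of 0.24, and its most similar genes were Cd48 (r = 0.985), Ly86 (0.982) and Ctss (0.982).

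**Figure D4:**
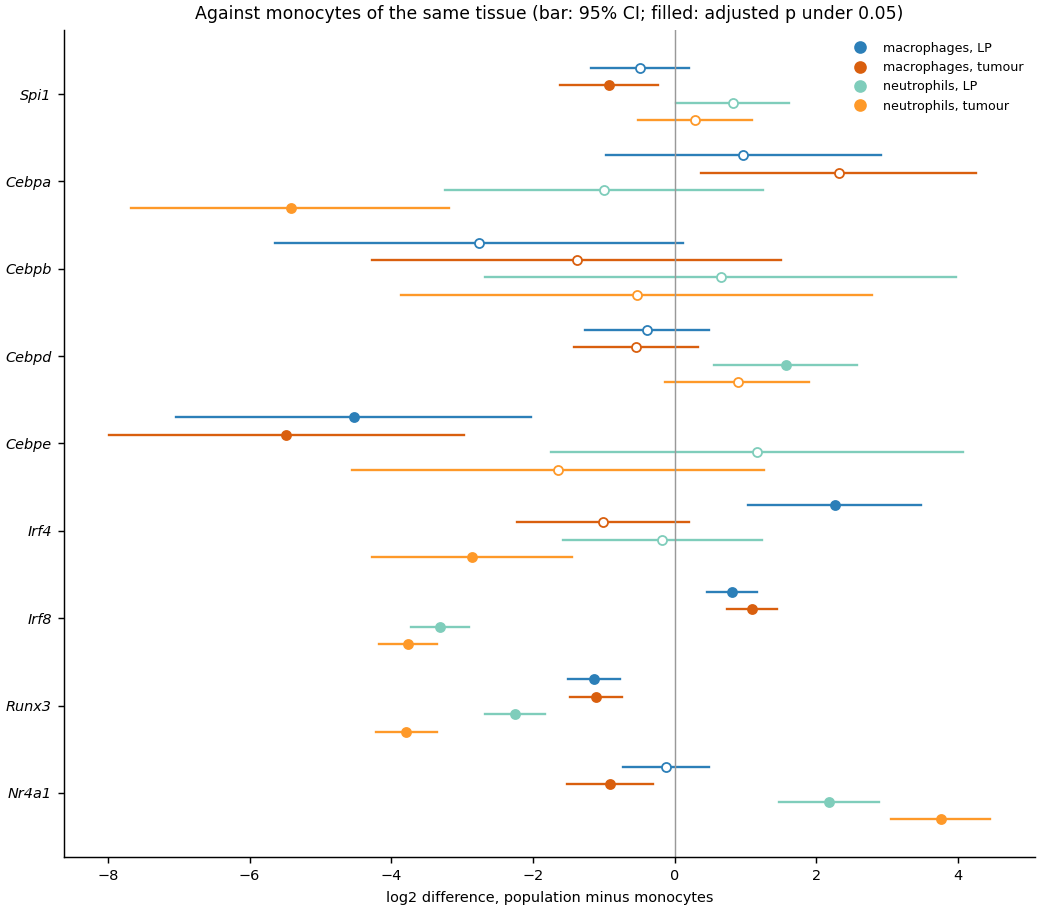
Difference of macrophages (mean of both subsets) and neutrophils from monocytes of the same tissue (log2, x axis) for the 9 tested factors, with 95% confidence intervals and filled points for an adjusted p under 0.05. Irf8 and Runx3 lie far left in neutrophils of both tissues (-3.31 and -2.25 in LP, -3.76 and -3.79 in tumour), Irf8 lies right in macrophages, and Cebpe lies left in macrophages.

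The populations were compared within each tissue to ask which factors mark them. Of the 9 factors 4 differed between macrophages and monocytes in LP (29.5% of all genes did) and 5 in tumour (38.3%). Between neutrophils and monocytes 4 differed in LP (54.5%) and 5 in tumour (58.1%). The shares of the panel lay near those of all genes. Irf8, Runx3 and Nr4a1 passed in neutrophils of both tissues, and Cebpe, Irf8 and Runx3 in macrophages of both.

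Runx3 was highest in monocytes, with 5.59, 5.74 and 5.97 log2 RPKM in LP and 6.05, 6.27 and 6.13 in tumour, and lowest in neutrophils, with 3.66, 3.07 and 3.81 in LP and 2.44, 1.97 and 2.66 in tumour. Neutrophils were 4.77-fold below monocytes in LP (log2 -2.25, adjusted p = 1.89e-08) and 13.8-fold below in tumour (log2 -3.79, adjusted p = 1.18e-11). Tumour neutrophils were below LP neutrophils without overlap (log2 -1.16, SE 0.21, adjusted p = 2.49e-04), and this tumour difference was lower than that of monocytes by 1.54 log2 units (log2 -1.54, adjusted p = 0.00250), a call that held in all 12 fits with 1 library left out.

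Runx3 also differed between the macrophage subsets of LP. LP MHCIIhi macrophages held 5.14, 5.25 and 5.38 and LP MHCIIlow macrophages 3.67, 4.14 and 4.16, so that the MHCIIlow cells were lower in every library (log2 -1.27, SE 0.21, adjusted p = 5.06e-04). Runx3 was the only one of 9 factors to pass in that comparison, in which 7.70% of all genes did. In tumour the subsets overlapped at 4.92 to 5.33 and 4.77 to 5.29 (log2 -0.07, 95% interval -0.50 to 0.36), and none of the 9 factors passed limma in this comparison, in which 1.13% of genes did. An unadjusted p under 0.05 was reached by 2 of them (Irf4 and Nr4a1), of which Nr4a1 passed with voom on the recovered reads and Irf4 under quantile normalization. Tumour MHCIIlow macrophages were higher than LP MHCIIlow macrophages by 1.01 log2 units (SE 0.21, adjusted p = 0.00109), without overlap. The tumour difference of the subsets differed by 1.20 (95% interval 0.59 to 1.80, adjusted p = 0.0445), and this was lost in 9 of the 12 fits with 1 library left out, at adjusted p up to 0.112. T and NK cell markers (9 of 11 in the table) were at 140 to 146 RPKM in LP MHCIIhi, 16.9 to 56.0 in LP MHCIIlow, 15.0 to 23.4 in tumour MHCIIhi and 27.9 to 40.3 in tumour MHCIIlow macrophages. Most of these sums was Il7r, while Cd3e, which defines T cells, had at most 51 reads in a macrophage library. Of the same list, Lck reached 219 and Cd247 104 reads in a tumour MHCIIlow library, and Lck 106 reads in an LP MHCIIlow library. The part of such transcripts in the Runx3 differences was not tested. The 3 genes most like Runx3 were Snd1 (r = 0.943), Arl5c (0.941) and Sestd1 (0.940).

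Runx3 (chr4:135120652-135177990, plus strand, protein coding) has RefSeq windows at 2 starts, and the upstream one (GRCm38.p6, chr4:135120395-135120694, plus strand) is shown because Runx factors bind ACCACA and this window holds that motif, searched as ACCACA and TGTGGT and set in capitals.
Runx3: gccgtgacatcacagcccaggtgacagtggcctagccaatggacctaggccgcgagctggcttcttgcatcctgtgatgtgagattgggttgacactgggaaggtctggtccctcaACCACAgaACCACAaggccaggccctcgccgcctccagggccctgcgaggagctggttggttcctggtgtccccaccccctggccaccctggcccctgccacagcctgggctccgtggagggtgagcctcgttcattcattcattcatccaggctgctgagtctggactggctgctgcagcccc
It held 2 matches, as 1.81% of all windows did or more, and the downstream window none.

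Spi1, which encodes PU.1 (chr2:91082390-91115756, plus strand), was high throughout, from 5.91 to 9.64 log2 RPKM, and varied less between groups than any other factor, over 2.16 log2 units of group means. LP MHCIIhi macrophages held 7.68, 7.84 and 7.78 and tumour MHCIIhi macrophages 7.0, 6.94 and 5.91 in pools I, V and VII. The tumour libraries were all lower (log2 -1.15, SE 0.38, adjusted p = 0.0407), and pool VII was the lowest of the 24. Without it the difference was -0.80 (adjusted p = 0.219), and without LP pool III, IV or V the adjusted p was 0.0790, 0.104 and 0.0946. Tumour macrophages were below tumour monocytes, which held 7.72, 7.77 and 7.66, by 0.93 log2 units (log2 -0.93, adjusted p = 0.0338), and this was lost without tumour MHCIIhi pool VII (-0.75, adjusted p = 0.0795), tumour MHCIIlow pool VII (-0.85, 0.0667) or tumour monocyte pool I, II or V (0.0735 to 0.0934), and under quantile normalization (-0.46, 0.212). LP neutrophils held 9.09, 7.62 and 9.64, and pool IV stood with the other populations. Without it they were above LP monocytes by 1.40 (adjusted p = 0.00139, against 0.82 and 0.0777 with it) and tumour neutrophils, at 8.65, 7.50 and 7.87, were lower by 1.36 (log2 -1.36, adjusted p = 0.00395, against -0.77 and 0.135 with it). With summed reads as library sizes and all libraries the latter was -1.24 (0.00957).

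Genes known as PU.1 targets were read beside Spi1. Of 13 tested (Csf1r, Csf2ra, Csf3r, Itgam, Cybb and others) 2 were higher and 2 lower in tumour MHCIIhi macrophages (median 0.17), where Spi1 was lower. Ncf1, a subunit of the NADPH oxidase, was higher there by 1.78 and the endotoxin receptor Tlr4 lower (log2 -0.75). In MHCIIlow macrophages 6 were higher and 2 lower, with Il1b, a pro-inflammatory cytokine, higher by 2.19. In neutrophils of tumour 5 were higher and 2 lower.

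The C/EBP factors had distinct levels. Cebpa (chr7:35119293-35121928, plus strand) was highest in macrophages, at 2.91 to 3.56 in LP and 3.14 to 4.51 in tumour macrophages, 2.05 to 2.56 in LP and 1.43 to 2.08 in tumour monocytes. It was at 1.35, 0.86 and 1.88 in LP neutrophils and -0.71, -8.22 and -2.31 in tumour neutrophils, where pools I, II and V had 20, 0 and 4 reads. Tumour neutrophils were thus lower than LP neutrophils (log2 -5.11, SE 1.08, adjusted p = 0.00116) and tumour monocytes (log2 -5.42, adjusted p = 2.36e-04). With so few reads the size depends on the constant added to each value, and it ranged from -1.53 to -6.63 between tissues over the alternatives. The call between tissues was lost with only the libraries compared (-5.11, adjusted p = 0.0654). In tumour the macrophages were above monocytes without overlap by 2.32 (adjusted p = 0.0558). This was called in 7 of 10 alternatives and in 0 of 9 fits with 1 library left out. In LP they were above by 0.97, also without overlap (adjusted p = 0.476), called in 3 of 10 and 0 of 9. The fit shares 1 estimate of the spread over all groups, among them tumour neutrophils with an SD of 3.95.

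Cebpd (chr16:15887286-15891031, plus strand) was highest in LP neutrophils, at 5.84, 5.51 and 7.43 in pools III, IV and V, against 4.81, 4.77 and 4.77 in tumour neutrophils (log2 -1.48, SE 0.48, adjusted p = 0.0243). LP neutrophils were also above LP monocytes, at 4.51, 4.73 and 4.84, by 1.57 (adjusted p = 0.00985). Both calls rested on LP pool V, without which they were -0.89 (adjusted p = 0.167) and 0.98 (0.0852), and the first was also lost without tumour pool II (0.0539) or V (0.0527). With summed reads as library sizes the second was 0.74 (0.168). The first was lost too under quantile normalization (-1.25, 0.0789) and median centring (-1.23, 0.0511). In the other 3 populations the Cebpd differences of tumour from LP were -0.80 to -0.98 and did not pass. Libraries did not overlap in monocytes and MHCIIlow macrophages, and with only the libraries compared these passed (-0.80, 0.0130 and -0.92, 0.0251). The gene most like it, Marcksl1 (r = 0.887), was also among the 3 most like Spi1, and the 2 factors correlated at 0.84 over the 24 libraries, which share the 8 groups.

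Cebpb (chr2:167688915-167690418, plus strand) scattered most widely of the tested factors, with an SD of 2.16 within groups. LP neutrophils held 1.33, 0.76 and 8.27 in pools III, IV and V, and LP monocytes 1.86, 0.90 and 5.63 in pools III, IV and V. LP pool V was the highest in both, whereas LP MHCIIhi macrophages of pool V were at -0.19. Tumour MHCIIhi macrophages held 2.46, 3.10 and -0.35 and tumour MHCIIlow macrophages 0.62, 3.85 and -0.92 in pools I, V and VII, with pool V highest in both. In tumour monocytes, at 4.72, 2.26 and 1.55 in pools I, II and V, and tumour neutrophils, at 2.25, 2.65 and 2.03, pool V was the lowest. LP MHCIIlow macrophages were uniformly low, at -0.12, -0.15 and -0.26. Cebpb passed in none of the 13 comparisons, and its differences between tissues had intervals as wide as -4.47 to 2.18 in neutrophils. Of its exonic bases 20.7% overlap Tmem189 on the opposite strand, and of those of Cebpd 15% overlap Spidr. Whether the reads were counted by strand is not given in the sources used here, so reads of such genes cannot be told apart.

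A list of 8 genes downstream of C/EBPb and C/EBPd (Il6, Csf3, Ptgs2, Saa3, Arg1, Il1b, Lcn2, Hp) was read beside the C/EBP factors. None was lower and 3 were higher in MHCIIlow macrophages (median 1.93), 3 in monocytes (median 1.45) and 4 in neutrophils (median 1.35). Ptgs2, which encodes the inducible prostaglandin synthase, was higher by 2.71 in monocytes, 2.3 in neutrophils and 1.97 in MHCIIlow macrophages. MHCIIhi macrophages had 2 higher, Ptgs2 by 0.94 and the acute-phase gene Saa3 by 3.41, and 1 lower.

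Cebpe and Gfi1, the granulocyte maturation factors, were near the limit of detection. Cebpe (chr14:54710360-54712174, minus strand) had 43, 38 and 63 reads in LP neutrophils and 22, 2 and 6 in tumour neutrophils, but also 12, 128 and 34 in LP monocytes and 102, 66 and 35 in tumour monocytes. Macrophage libraries had 0 to 12 reads. Macrophages were lower than monocytes in LP (log2 -4.53, SE 1.20, adjusted p = 0.00728, 0.0533 without LP monocyte pool IV at -3.83) and in tumour (log2 -5.48, SE 1.20, adjusted p = 0.00116), without overlap. The size again depends on the added constant, and with 1 added to RPKM the LP difference was -0.92. Neutrophils and monocytes overlapped in both tissues. Summed neutrophil markers in monocytes were 99.0 to 136 RPKM in LP and 160 to 301 in tumour, against 11604 or more in neutrophils, and Ly6g had at most 32 reads in a monocyte library. Summed granule genes were at 519, 67.9 and 59.1 RPKM in LP monocyte pools III, IV and V. They were at 95.4 to 189 in tumour monocytes and at 2078 or more in neutrophils. The granule gene Ltf stood at 8.89 log2 RPKM in LP monocyte pool III, within the LP neutrophil range of 7.35 to 10.17. The part of such transcripts in the Cebpe levels of monocytes was not tested.

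Gfi1 (chr5:107716657-107726036, minus strand) had 38, 28 and 46 reads in the 3 LP neutrophil libraries and 0, 2 and 0 in tumour neutrophils. LP MHCIIhi, LP MHCIIlow, LP monocyte and tumour MHCIIhi libraries had none, tumour MHCIIlow pools V and VII had 16 and 12, and 1 tumour monocyte library had 2. Against a floor of 3 reads per library, LP neutrophils were at least 25.2-fold, 15.3-fold, 21.6-fold and 20.7-fold higher than those groups without reads. The ratio of LP to tumour neutrophils was 26.9 (95% exact interval from counting alone 7.29 to 225). Reads are not separate molecules, and 65.1% of values of 1 to 20 reads were even numbers, so such intervals are too narrow. Fitted without the filter, Gfi1 was lower in tumour than in LP neutrophils (log2 -6.15, adjusted p = 0.00273). Granule genes are switched on in maturing granulocytes with the help of these factors. Of 11 listed, 7 were tested, none was lower in tumour neutrophils and Mmp9 was higher by 1.58.

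The relatives of the panel (17 genes of the Ets, C/EBP, Gfi, IRF, Runx and Nr4a families) moved in both directions. In tumour against LP, 3 were higher and 3 lower in each macrophage subset, 3 higher and 1 lower in monocytes, and 4 higher and 4 lower in neutrophils. Of all genes, 19.5% passed in MHCIIhi macrophages, 23.3% in MHCIIlow macrophages, 9.29% in monocytes and 32.2% in neutrophils. Irf7 and Irf9, which drive the interferon response, were lower in both macrophage subsets, Irf7 by log2 -2.24 in MHCIIhi and -1.64 in MHCIIlow cells and Irf9 by -1.30 and -1.40. Runx1 was lower in tumour MHCIIlow macrophages (log2 -1.21), where Runx3 was higher, and higher in tumour monocytes by 0.80. Runx2 was lower in macrophages than in monocytes in LP (log2 -3.38) and tumour (log2 -3.48), as was Runx3. Nr4a3 was higher in tumour neutrophils by 1.98, and above monocytes in neutrophils of LP by 3.87 and of tumour by 2.82.

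Of 20 other factors of myeloid cells 17 were tested. In tumour 2 were higher and 5 lower in MHCIIhi macrophages (median -0.34), 1 higher and 7 lower in MHCIIlow macrophages (median -0.82), 1 and 2 in monocytes and 1 and 5 in neutrophils. Bach1, a haem-sensing repressor, was lower in both subsets (log2 -1.50 in MHCIIhi and -2.69 in MHCIIlow cells), as was Stat3, a transducer of interleukin-6 and interleukin-10 signals (log2 -1.38 and -1.39), and Klf4 was lower in MHCIIlow cells (log2 -1.85).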

How the data were processed

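RNA of sorted cells was amplified by a modification of SMARTSeq v2 and sequenced from both ends. The deposited values were log2 RPKM made by the authors from featureCounts 1.5 read counts after alignment to mm10 with STAR 2.3, and edgeR is also named in the submitters' processing notes, with no version. Whether counting used strand is not given in the sources used here. Whole reads were recovered for 100% of 415224 values (tolerance 0.0001 reads). The deposited values hold an added count that scales with library size, taken here to be 0.25 reads on average. The 12838061 to 41718078 reads on genes per library set the precision, and intervals from reads cover counting error only.

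Groups came from the labels. All 24 libraries entered 1 limma fit (limma 3.58.1 in R 4.3.3, with a trend) with 8 group means, restricted to genes whose mean reached 1 RPKM in any group, with Benjamini-Hochberg adjustment within each of 13 comparisons. Several comparisons share libraries. Alternatives were limma voom on recovered reads, log2(RPKM + 1), log2(RPKM + 0.1), no filter, a filter at 5 RPKM, quantile normalization, median centring, only the libraries compared, a replicate block, leaving out each library and, added after seeing the data, summed reads as library sizes. Libraries of the same pool number and tissue shared little deviation from their group means, which correlated at -0.0661 to 0.255 over 29 pairs (median 0.0169). Whether equal numbers stand for a shared pool cannot be told from this, and equal numbers in LP and tumour were not compared.

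The factors and gene lists were chosen with earlier results of these data known. From each list at most 4 genes a comparison were named, those with the largest difference among genes past the threshold without overlap between groups and with 10 RPKM or more in the higher mean. For likeness 5274 genes were compared, and up to 3 with the highest Pearson r were named. Results for some listed or similar genes are not reported here. Gene positions are those of GENCODE (GRCm38), and promoter windows, matched by symbol for 7 of 10 factors, are from RefSeq (GRCm38.p6). Marker lists of eosinophils (4 of 8 in the table), mast cells (4 of 7) and epithelium (6 of 6) reached at most 42.6, 17.1 and 311 RPKM in a library. Epithelial markers were at 149 to 304 RPKM in tumour and 12.5 to 61 in LP neutrophils. In monocytes they were at 102 to 311 in tumour and 19.4 to 212 in LP, which overlapped, as did both macrophage subsets. The part of such transcripts in the differences was not tested.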

Additional observations from a re-analysis of the deposited data

Results flagged for a closer look

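The effect of tumour differed between populations, by a test of the difference itself, for 3 factors in 5 results. Runx3 had a tumour effect that was higher in MHCIIlow than in MHCIIhi macrophages by 1.20 log2 units (limma, adjusted p = 0.0445). All 3 tumour MHCIIlow libraries lay above the 3 LP libraries, whereas MHCIIhi libraries overlapped. Nr4a1 had the reverse order in the same contrast, with -1.93 (adjusted p = 0.0457). Both lost their call in most fits with 1 library left out, in 9 of 12 for Runx3 and 8 of 12 for Nr4a1. The effect in neutrophils minus that in monocytes was -1.54 for Runx3 (adjusted p = 0.00250), with a call in 12 of 12 such fits, and 1.58 for Nr4a1 (adjusted p = 0.0427), with a call in 2 of 12. For Irf4 the effect in macrophages minus that in monocytes was -3.28 (adjusted p = 0.0142), with a call in 17 of 18 such fits. Tumour, Apc genotype, dextran sodium sulphate treatment and digestion cannot be told apart in any of these.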

How the results depend on the processing

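The number of the 9 tested factors that passed was within 1.5 times that given in the report, or the same, except where named here. With log2(RPKM + 1) it was 2 between the LP macrophage subsets and 2 for the tumour effect of macrophages minus monocytes. With no filter it was 0 for the tumour effect of MHCIIlow minus MHCIIhi macrophages. Under quantile normalization it was 1 between the tumour subsets and 1 for the tumour effect of neutrophils minus monocytes, and under median centring 1 for the tumour effect between subsets. With only the libraries compared it was 5 in MHCIIlow macrophages, 2 in monocytes, 2 between LP subsets, 7 between LP macrophages and monocytes, 0 for the tumour effect between subsets and 2 for that of macrophages minus monocytes. With voom it was 2 between LP subsets and 1 between tumour subsets. With summed reads it was 1 in MHCIIhi macrophages and 1 for the tumour effect between subsets. Spi1 in tumour neutrophils against monocytes, at 0.29 in the report, reversed to -0.81 (adjusted p = 0.0461) under quantile normalization and -0.84 (0.0460) with summed reads. The causes were not tested. Shares of all genes called under each setting, or with a library left out, are not reported here. These counts, and those of the next paragraph, are therefore not read as results about the factors.

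Leaving out 1 library at a time, the count for tumour against LP was 1 to 2 in MHCIIhi macrophages, 2 to 3 in MHCIIlow macrophages, 1 to 1 in monocytes and 4 to 6 in neutrophils. It was 1 to 1 between LP subsets, 0 to 1 between tumour subsets, 3 to 4 and 3 to 5 between macrophages and monocytes of LP and tumour, and 3 to 5 and 5 to 5 between neutrophils and monocytes. For the tumour effects it was 0 to 2 between subsets, 1 to 3 for neutrophils minus monocytes and 0 to 1 for macrophages minus monocytes. With the pool number as a replicate block the counts were 3, 3, 1, 5, 1, 0, 4, 5, 4, 5, 2, 2 and 1 in the order of these comparisons, which are those of the report. The pairing check is in the methods. Depth limits the size of differences that rest on few reads: those of Cebpe and Gfi1, of Cebpa and Irf4 in tumour neutrophils (Irf4 4 to 16 reads), of Irf4 in tumour MHCIIlow pools I and V (38 and 26 reads) and of Cebpb in several macrophage libraries.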
